A study of Bos taurus with 9 samples.

Results

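Hepatokines are proteins that the liver releases into the blood and that act on other organs. A set of 9 genes of this kind or of transforming growth factor beta (TGF-beta) family signalling, *INHBE*, *INHBC*, *GDF15*, *RGMB*, *FGF21*, *ANGPTL4*, *ANGPTL8*, *LECT2* and *FETUB*, were followed in the liver of Holstein dairy cows. They were taken by symbol, and all 9 had a row among the 28786 rows of the count table, of which 21008 had at least 1 count. *RGMB* does not code for a ligand: it codes for a membrane-bound co-receptor of bone morphogenetic proteins (BMPs), and it is kept here under the rule that chose the set.

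The study sequenced polyA RNA from liver biopsies of 9 lactating cows, 3 in each of 3 conditions. The cows labelled thermoneutrality (TN) were housed in the comfort range, and the heat stress (HS) cows were housed in hot air. The pair-fed (PF) cows were housed as the TN cows but given only as much feed as the HS cows ate. PF therefore shares low intake with HS and temperature with TN. All cows were of the same breed and were biopsied once in the second week of treatment and picked at random from a larger experiment. Mean days in milk differed between the conditions, with TN earliest and PF latest, and ages were not given. Each library is 1 cow, so the spread between libraries is the spread between animals.

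The libraries held 16874444 to 22557047 counts in genes. Levels are given as CPM (the count of a gene scaled to a common library size) after TMM normalization, with the SD over the 3 cows of a group. The upper limit behind a count of 0 was set at 3 counts, equal to 0.111 to 0.202 CPM depending on the library, and covers counting error only. All 10 hepatocyte markers had counts, so the liver label held. TN replicate 1 stood apart with a summed hepatocyte marker level of 20016 CPM against 67364 to 140459 CPM in the other 8 libraries. *ALB* made up the largest part of this sum, at 8603 CPM in TN replicate 1 against 33979 to 81892 CPM elsewhere. In TN replicate 1, *APOA1* (826 CPM), *APOB* (956 CPM) and *TAT* (423 CPM) lay within the range of the other libraries. The remaining markers were lowest in TN replicate 1. The percentage of counts in the 13 mitochondrially encoded genes was 13.6 to 22.2 in TN, 6.90 to 7.79 in PF and 3.84 to 5.68 in HS. In bulk tissue, fewer cells of a type and less RNA per cell cannot be told apart, and this holds for every value that follows.

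By way of background, ligands of the TGF-beta family bind pairs of type I and type II receptors, which phosphorylate SMAD proteins that then enter the nucleus. Activins signal through SMAD2 and SMAD3, and BMPs through SMAD1, SMAD5 and SMAD9, whose best known liver target is hepcidin. The remaining hepatokines mostly carry information on nutrition: *FGF21* is a fasting and stress hormone, while the angiopoietin-like proteins set where circulating triglyceride is taken up by controlling lipoprotein lipase.

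In HS compared with TN, 8 of the 9 genes had a higher mean and 1, *ANGPTL8*, a lower mean. None of the 9 was called by edgeR's quasi-likelihood test (false discovery rate, FDR, under 0.1 and fold change over 1.5), which called 0.0892% of 14582 genes. DESeq2 under the same criteria called 5 of the 9, namely *INHBE*, *INHBC*, *RGMB* and *LECT2* as higher and *ANGPTL8* as lower, against 1.75% of all genes. The unadjusted edgeR p was under 0.05 for the same 5 genes, against 9.36% of all genes. The cows of HS and TN did not overlap for 6 of the 9, against 16.1% of all genes. The median log2 fold change of the 9 genes was 1.30, and that of all genes tested was -0.0082. The 9 genes were chosen with earlier results of these data known. Their shares and medians beside those of all genes are therefore a description, not independent evidence about the set, here and in the comparisons that follow.

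In PF compared with TN, the log2 fold change was above 0 for 7 of the 9 genes and below 0 for 2, *ANGPTL8* and *GDF15*. The edgeR test called 0 of the 9 and 0% of 14580 genes, while 4 of the 9 (*INHBE*, *INHBC*, *FGF21* and *ANGPTL8*) had an unadjusted p under 0.05 against 6.88% of all genes. DESeq2 called *INHBE* and *ANGPTL8*, against 0.555% of all genes. The cows did not overlap for 6 of the 9, against 13.3% of all genes, and the median log2 fold change of the 9 was 0.85 against -0.014 over all genes. HS vs TN and PF vs TN share the same 3 TN cows, so the values of these comparisons are not independent of each other.

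In HS compared with PF, where intake was matched, log2 fold changes ran from -3.49 (*FGF21*) to 1.97 (*GDF15*). Neither edgeR nor DESeq2 called any of the 9, against 0.0276% and 0.771% of all genes. The unadjusted edgeR p was under 0.05 for *FGF21* and *RGMB*, against 5.32% of all genes, and the cows did not overlap for *GDF15* and *RGMB*, against 10.6% of all genes. The median log2 fold change of the 9 was 0.37 against 0.0069 over all genes.

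Over the 3 conditions in 1 test, edgeR called none of the 9 and 0.0464% of 15073 genes, with the lowest FDR of the set at 0.152 for *INHBE*. The DESeq2 likelihood ratio test called *INHBE*, *INHBC*, *ANGPTL8* and *RGMB*, against 1.89% of all genes. For 4 of the 9 (*INHBE*, *INHBC*, *LECT2* and *RGMB*) every HS and every PF cow was above every TN cow, against 2.5% of all genes. For *ANGPTL8* every HS and every PF cow was below every TN cow, against 2.29% of all genes.

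**Figure D1:**
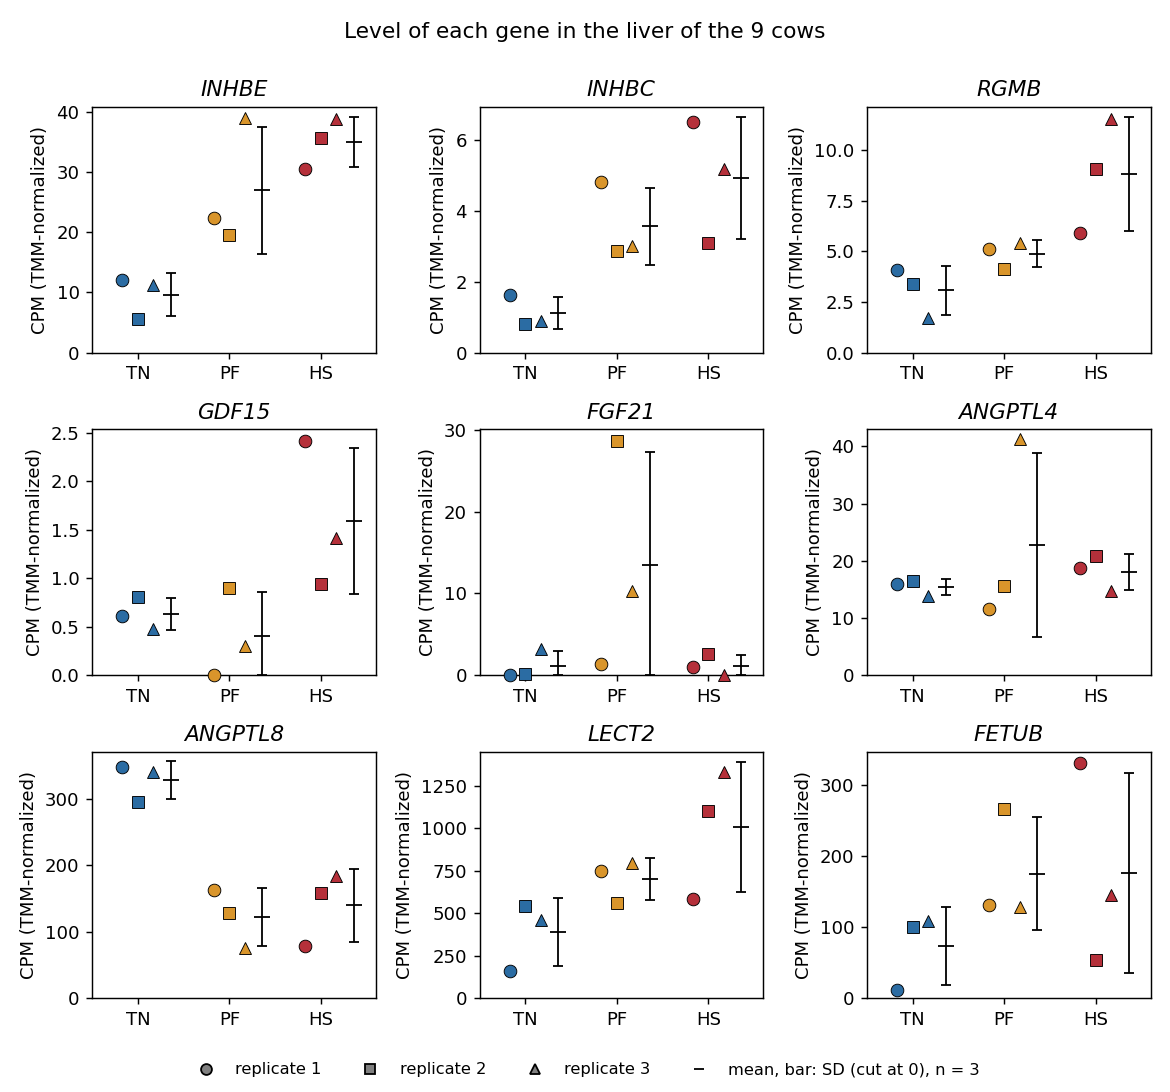
Level of each of the 9 genes, in TMM-normalized CPM on a linear axis from 0, with 1 point for each cow, a marker shape for each replicate number, and the mean with its SD over 3 cows beside each group. The TN cows sit below both other groups for *INHBE* (5.63 to 12.1 CPM) and above both for *ANGPTL8* (296 to 349 CPM), while the PF means of *FGF21* and *ANGPTL4* are drawn up by 1 or 2 cows.

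*INHBE* codes for the beta E subunit of inhibin and activin, which hepatocytes secrete as activin E and which acts on fat tissue. It was at 12.1, 5.63 and 11.2 CPM in the TN cows, at 22.3, 19.5 and 38.9 CPM in the PF cows, and at 30.4, 35.7 and 38.7 CPM in the HS cows. All low-intake cows were above all TN cows, PF replicate 3 was at the level of the highest HS cow, and the HS cows were the most alike of the 3 groups. HS exceeded TN by 1.82 ± 0.30 on the log2 scale (SE), a 3.52-fold difference ranked 20 of 14582 genes by p with an FDR of 0.114 in edgeR and 4.17e-05 in DESeq2. PF exceeded TN by 1.46 ± 0.36 with an edgeR FDR of 0.583 and a DESeq2 FDR of 0.0502. The order of the means was TN, PF, HS, and the neighbours PF and HS overlapped, with a log2 difference of 0.37 ± 0.28. The edgeR call in HS vs TN depended on the cows used: without TN replicate 2, the lowest TN cow, the FDR was 0.0670 and the gene was called.

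*INHBC*, which codes for the related beta C subunit, lies next to *INHBE* in the RefSeq annotation of assembly ARS-UCD2.0. Its levels were 1.62, 0.805 and 0.895 CPM in TN, 4.82, 2.86 and 3.02 CPM in PF, and 6.50, 3.11 and 5.19 CPM in HS. These rest on 13 to 37 counts a library in TN and 53 to 175 in HS. As for its neighbour, all TN cows were below all other cows, and PF and HS overlapped. The log2 fold change was 2.10 ± 0.49 in HS vs TN (edgeR FDR 0.280, DESeq2 FDR 0.00961), the largest of the 9 in that comparison, and 1.65 ± 0.55 in PF vs TN (edgeR FDR 0.697, DESeq2 FDR 0.319). It was 0.46 ± 0.40 in HS vs PF. Across the 9 libraries the log2 levels of *INHBC* and *INHBE* had a Pearson correlation of 0.843. This is a description over 9 libraries that share the 3 conditions.

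*RGMB* (repulsive guidance molecule B, also known as DRAGON) binds BMPs and neogenin and strengthens SMAD1, SMAD5 and SMAD9 signalling. Its levels were 4.08, 3.41 and 1.73 CPM in TN, 5.11, 4.15 and 5.42 CPM in PF, and 5.90, 9.08 and 11.5 CPM in HS. The 3 groups did not overlap at any step, although PF replicate 2 lay just above TN replicate 1, and HS replicate 1 just above PF replicate 3. HS exceeded TN by 1.48 ± 0.41 on the log2 scale (edgeR FDR 0.381, DESeq2 FDR 0.0590) and exceeded PF by 0.84 ± 0.33 (edgeR FDR 0.831, DESeq2 FDR 0.697). PF and TN differed by 0.65 ± 0.43 (edgeR FDR 0.724). Of the 9 genes, *RGMB* and *GDF15* were the ones for which every HS cow was above every PF cow.

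*GDF15* codes for a stress hormone of the TGF-beta family that reduces food intake through a receptor in the hindbrain. It was scarce, with 14, 13 and 8 counts in the TN cows, 0, 16 and 6 in PF, and 65, 16 and 21 in HS. In CPM this was 0.615, 0.805 and 0.477 in TN, at most 0.897 in PF, and 2.41, 0.938 and 1.42 in HS. Every HS cow was above every other cow, but HS replicate 2 exceeded the highest PF cow by little. The count of 0 in PF replicate 1 allows a level of up to 0.176 CPM. The log2 fold change was 1.30 ± 0.61 in HS vs TN (edgeR FDR 0.527) and 1.97 ± 0.96 in HS vs PF (edgeR FDR 0.949), with DESeq2 FDRs of 0.559 and 0.794. PF and TN overlapped, with a log2 difference of -0.66 ± 1.11. With so few counts single cows moved these values: HS vs TN was 0.86 without HS replicate 1, HS vs PF ran from 1.41 without PF replicate 1 to 3.28 without PF replicate 2, and PF vs TN was -0.085 and -1.97 without the same cows.

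**Figure D2:**
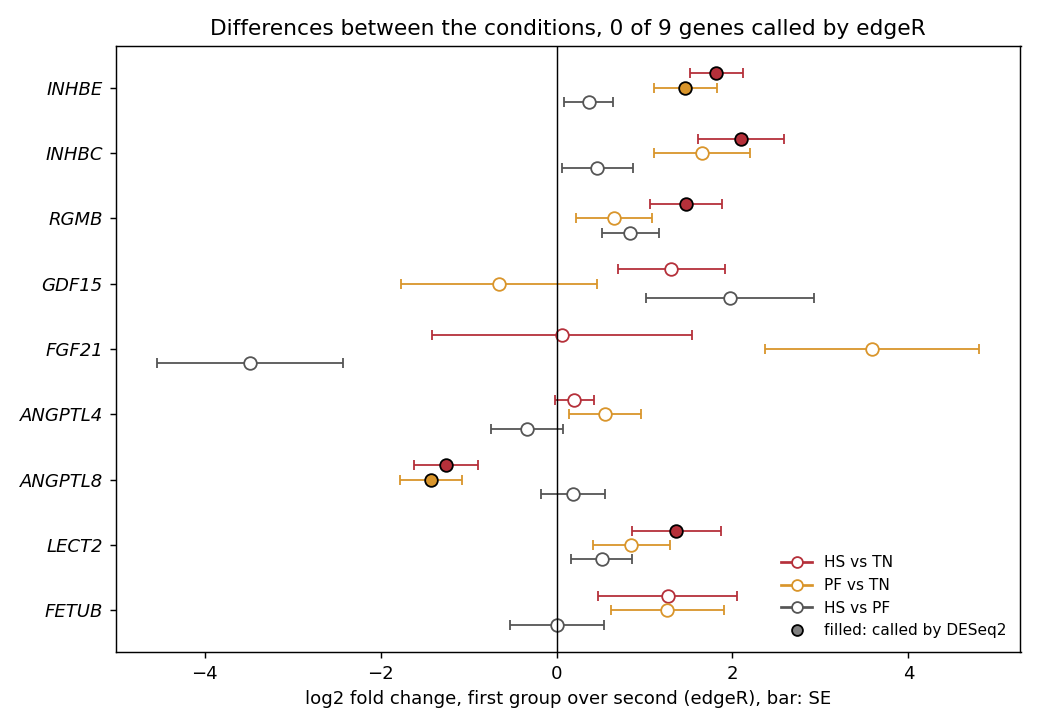
Log2 fold change of each of the 9 genes in HS vs TN, PF vs TN and HS vs PF from edgeR, with the SE as bars, where a filled point marks a DESeq2 call and no point was called by edgeR. The *INHBE*, *INHBC* and *ANGPTL8* points of HS vs TN and PF vs TN lie close together and far from 0, while the widest bars belong to *FGF21* (SE 1.06 to 1.48) and to *GDF15* in PF vs TN.

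*FGF21* codes for the fibroblast growth factor that the fasting liver releases. It had 0, 3 and 54 counts in the TN cows, 24, 510 and 201 in the PF cows, and 26, 44 and 0 in the HS cows. The PF levels were thus 1.41, 28.6 and 10.3 CPM, whereas no TN cow exceeded 3.22 CPM and no HS cow 2.58 CPM. PF replicates 2 and 3 stood above all other cows, and PF replicate 1 lay within the range of both other groups. The largest log2 fold changes of the set were in this gene, at 3.59 ± 1.22 in PF vs TN (edgeR FDR 0.697) and -3.49 ± 1.06 in HS vs PF (edgeR FDR 0.625). DESeq2 gave FDRs of 0.686 and 0.844. Both sizes depended on single cows: PF vs TN ran from 2.38 without PF replicate 2 to 7.27 without TN replicate 3, and HS vs PF from -4.60 without HS replicate 2 to -2.30 without PF replicate 2. HS and TN could not be ordered, at 1.18 ± 1.30 and 1.14 ± 1.81 CPM (SD, n = 3 each), with a log2 difference of 0.066 ± 1.48. The spread within PF, with a coefficient of variation of 103%, was as large as the PF mean itself.

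*ANGPTL4* codes for an inhibitor of lipoprotein lipase that fatty acids induce through PPARA. It was at 15.9, 16.5 and 13.8 CPM in TN, at 11.6, 15.6 and 41.2 CPM in PF, and at 18.7, 20.9 and 14.7 CPM in HS. All but 1 cow were between 11.6 and 20.9 CPM, and that cow was PF replicate 3. The groups overlapped in all comparisons, with log2 fold changes of 0.20 ± 0.22 in HS vs TN, 0.55 ± 0.41 in PF vs TN and -0.34 ± 0.41 in HS vs PF. Without PF replicate 3 the latter became -0.18 and 0.40, so the higher PF mean rests on that cow. The same cow had the highest level of *CREB3L3*, a liver transcription factor that acts with PPARA, at 145 CPM against 41.0 to 117 CPM in the other 8.

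*ANGPTL8* codes for a protein of the fed state that takes part in inhibiting lipoprotein lipase in muscle. It was at 349, 296 and 340 CPM in TN, at 163, 129 and 76.0 CPM in PF, and at 78.3, 159 and 184 CPM in HS. The TN cows were close to each other, with a coefficient of variation of 8.76%, and the lowest of them was well above the highest cow of either other group. The level was 2.39-fold lower in HS than in TN (log2 fold change -1.26 ± 0.36, edgeR FDR 0.392, DESeq2 FDR 0.0248) and was also lower in PF (-1.43 ± 0.35, edgeR FDR 0.579, DESeq2 FDR 0.00383). The means of HS and PF lay within each other's spread, with a log2 difference of 0.18 ± 0.37.

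*ANGPTL8* overlaps *DOCK6*, a gene for a guanine nucleotide exchange factor, in the RefSeq annotation. *DOCK6* had log2 fold changes of -1.71 ± 0.40 in HS vs TN (edgeR FDR 0.280, DESeq2 FDR 0.00203) and -2.02 ± 0.39 in PF vs TN (edgeR FDR 0.405, DESeq2 FDR 0.000160). DESeq2 thus called it in both comparisons, with lower FDRs than *ANGPTL8*, and its cows did not overlap in either. Its levels were 179, 58.7 and 154 CPM in TN, 29.3 to 34.2 CPM in PF and 33.8 to 44.6 CPM in HS. In TN replicate 2, *DOCK6* was nearer to the other groups while *ANGPTL8* was not. Whether the counting used strand is not stated, and without it reads from overlapping parts of the genes cannot be told apart, so the share of this pattern that belongs to each gene was not tested. *ANGPTL4* and *RGMB* also overlap another annotated locus each (*LOC132345705* and *LOC132345849*). Neither locus was among the genes counted, so there are no values for these loci, and their share in the counts of the 2 genes was not tested.

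*LECT2* codes for leukocyte cell-derived chemotaxin 2, a protein that hepatocytes secrete in large amounts and that is named for its action on neutrophils. Its levels were 161, 542 and 459 CPM in TN, 747, 559 and 793 CPM in PF, and 585, 1099 and 1331 CPM in HS. Every TN cow was below all others, but TN replicate 2 was just under PF replicate 2 and HS replicate 1. The log2 fold change was 1.36 ± 0.51 in HS vs TN (edgeR FDR 0.474, DESeq2 FDR 0.0584), 0.85 ± 0.44 in PF vs TN (edgeR FDR 0.709) and 0.51 ± 0.35 in HS vs PF. The lowest level was in TN replicate 1, the library with the low hepatocyte marker sum, and without it the log2 fold change was 1.00 in HS vs TN and 0.49 in PF vs TN. The summed level of the neutrophil markers was 22.7 to 38.7 CPM in HS, 7.40 to 27.1 CPM in PF and 6.45 to 16.9 CPM in TN. Of these markers only *S100A9* separated HS (11.7 to 20.0 CPM) from TN (3.42 to 7.34 CPM). *S100A8* overlapped, at 3.08 to 11.9 CPM in HS and up to 3.34 CPM in TN. *CXCR2* overlapped too, at 4.57 to 7.94 CPM in HS and 2.94 to 6.21 CPM in TN, and *MMP9* had at most 2 counts a library. The part of neutrophils in the *LECT2* values was not tested.

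*FETUB* codes for fetuin-B, a secreted cystatin-family protein, and lies beside *AHSG* (fetuin-A) and *HRG* in the RefSeq annotation. It varied widely between cows, with coefficients of variation of 45.3 to 79.9%, at 10.6, 100 and 109 CPM in TN, 130, 267 and 128 CPM in PF, and 330, 54.0 and 145 CPM in HS. The PF cows were all above the TN cows, whereas the HS cows ran from below 2 of the TN cows to the highest level of all. The log2 fold change was 1.26 ± 0.79 in HS vs TN (edgeR FDR 0.608), 1.26 ± 0.64 in PF vs TN (edgeR FDR 0.709) and 0.0049 ± 0.54 in HS vs PF. TN replicate 1 was again the lowest of the 9 libraries, and without it the log2 fold change was 0.75 in both HS vs TN and PF vs TN. Without HS replicate 1, the highest cow, HS vs TN was 0.44 and HS vs PF -0.84.

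**Figure D3:**
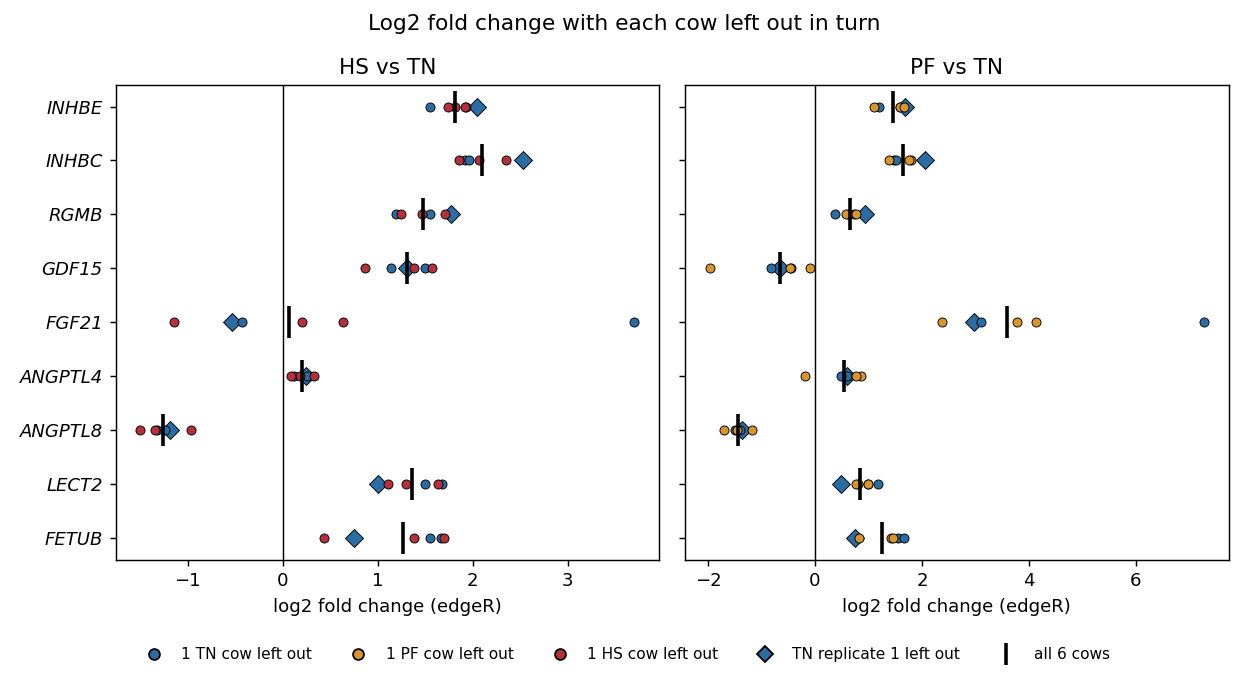
Log2 fold change (edgeR) of each gene in HS vs TN and PF vs TN with all 6 cows (bar) and with each cow left out in turn (points colored by the group of the cow left out, diamond for TN replicate 1). The points of *INHBE*, *INHBC*, *RGMB*, *ANGPTL8*, *LECT2* and *FETUB* stay on the side of 0 of the full value, whereas those of *FGF21* in HS vs TN run from -1.14 to 3.70.

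Genes that receive or pass on the signals of the set were then read from lists chosen with earlier results of these data known. Some list genes, among them *CREB3L3*, *ATF5*, *ACACA*, *APOA4* and *PHGDH*, were named by the study from these same samples. Calls of such genes are not independent evidence. Among 15 tested activin and BMP receptors and co-receptors in HS vs TN, 10 were higher and 5 lower, edgeR called none, and the median log2 fold change was 0.15. *ACVR1C* codes for the type I receptor ALK7, through which activin E acts on fat cells. It was barely detected in the liver, with means of 0.426 CPM in TN and 0.879 CPM in HS. The activin type II receptors *ACVR2A* and *ACVR2B* had log2 fold changes of -0.053 ± 0.30 and -0.053 ± 0.36, and the type I receptor *ACVR1B* one of -0.54 ± 0.34. *TGFBR3*, the betaglycan co-receptor, was at 0.42 ± 0.26, and *NEO1*, which codes for the RGM receptor neogenin, at 0.25 ± 0.29. All had overlapping cows in HS and TN.

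*HJV* codes for hemojuvelin, the RGM family member that hepatocytes use to control hepcidin. Its levels were 37.7, 92.9 and 53.2 CPM in TN, 33.1, 19.6 and 28.2 CPM in PF and 41.7, 41.4 and 131 CPM in HS. All PF cows were below all others, and HS overlapped TN. The log2 fold change was -1.19 ± 0.35 in PF vs TN (edgeR FDR 0.693) and 1.39 ± 0.43 in HS vs PF (edgeR FDR 0.638), where DESeq2 called it (FDR 0.0865). It thus differed from *RGMB*, whose PF cows were between those of TN and HS.

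All 6 tested SMAD transducers were higher on average in PF than in TN, with a median log2 fold change of 0.30, and 5 of 6 were in HS, with a median of 0.22. None was called. *SMAD1* had the smallest p of them, at 0.50 ± 0.23 in HS vs TN and 1.02 ± 0.27 in PF vs TN, followed by *SMAD9* at 0.44 ± 0.28 and 0.44 ± 0.39. In HS vs PF, 2 of the 6 transducers were higher and 4 lower, with a median of -0.091 and no call. For *SMAD1* every HS cow (25.7 to 31.2 CPM) was below every PF cow (34.4 to 47.3 CPM). Among the antagonists, the inhibitory SMAD genes *SMAD6* and *SMAD7*, which SMAD signalling itself induces, were at 0.99 ± 0.27 and 0.78 ± 0.32 in HS vs TN (edgeR FDR 0.381 and 0.504). In PF vs TN they were at 0.12 ± 0.31 and 0.27 ± 0.36. *FST*, which codes for the activin-binding protein follistatin, had a lower mean in HS than in TN (-0.75 ± 0.47), with overlapping cows.

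The list of SMAD target genes held the only call by edgeR among all list genes and comparisons. This was *HAMP*, which codes for the iron hormone hepcidin and which rose in HS compared with TN by 2.47 ± 0.37 on the log2 scale (edgeR FDR 0.0919). Its levels were 109, 100 and 52.0 CPM in TN, 533, 529 and 419 CPM in HS, and 71.5, 686 and 146 CPM in PF. The HS cows were tightly grouped, while the PF cows ran from within the TN range to above all HS cows. PF replicate 3 lay between the TN and the HS cows. Of the 9 tested targets, 8 were higher in HS than in TN with a median of 0.59, and 5 were higher in PF than in TN with a median of 0.063. *ID1*, a helix-loop-helix inhibitor that BMPs induce, was at 1.89 ± 0.35 in HS vs TN (edgeR FDR 0.166), and *ATOH8*, a transcription factor upstream of hepcidin, at 1.04 ± 0.23 (edgeR FDR 0.270). DESeq2 called all 3 in HS vs TN. *HAMP*, *ID1* and *ATOH8* were named by the study from these same samples, so this list is not independent evidence of its direction. With any 1 of the 6 cows left out, no gene of this list was called by edgeR.

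Of the other activin, inhibin and TGF-beta ligands, 10 of 19 passed the filter on low counts in HS vs TN, 5 higher and 5 lower, and none was called. *BMP6*, the main BMP ligand of hepcidin control, was at 0.53 ± 0.29 and *BMP4* at -0.43 ± 0.29. The median of the 10 was 0.11.

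The partners of *FGF21* showed no call. *KLB* codes for beta-klotho, its obligate co-receptor, and had higher levels in both low-intake groups. It was at 27.3, 24.5 and 27.2 CPM in TN, 55.2, 51.8 and 28.5 CPM in PF, and 30.9, 44.2 and 46.2 CPM in HS, with no overlap with TN. The log2 fold change was 0.77 ± 0.28 in PF vs TN (edgeR FDR 0.705) and 0.59 ± 0.22 in HS vs TN (edgeR FDR 0.485). *FGFR4*, the main hepatocyte FGF receptor, was at -0.25 ± 0.24 in PF vs TN and 0.22 ± 0.22 in HS vs TN. The other FGF receptor genes of the list, *FGFR1*, *FGFR2* and *FGFR3*, had overlapping cows in both comparisons.

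Regulators of *FGF21* and *ANGPTL4* were read from the lists of PPARA targets and of ATF4 stress response genes. Of 17 tested genes of the PPARA list, 15 were higher in PF than in TN with a median log2 fold change of 0.38, and 12 were higher in HS than in TN with a median of 0.19. In HS vs PF, 4 were higher and 13 lower, with a median of -0.18. None was called by edgeR. *CREB3L3* was at 0.96 ± 0.24 in HS vs TN (edgeR FDR 0.322, called by DESeq2), and *HADHA*, a subunit of the mitochondrial trifunctional protein of fatty acid oxidation, at 0.85 ± 0.33 (edgeR FDR 0.487). DESeq2 also called 1 gene of the list as lower in HS than in TN, *FABP1*, the liver fatty acid binding protein gene, at -1.24 ± 0.50 with overlapping cows (DESeq2 FDR 0.0922), and 1 as higher in PF than in TN, *ACSL1*, an acyl-CoA synthetase gene, at 1.01 ± 0.31. Of the ATF4 list, 6 of 15 tested genes were higher in HS than in TN and 7 of 16 in PF than in TN, with medians of -0.050 and -0.12. Its genes with the smallest p were *PHGDH*, the first enzyme of serine synthesis, at 0.90 ± 0.31, and the transcription factor gene *CEBPB* at 0.60 ± 0.21, both without overlap between HS and TN. The only DESeq2 call of this list in HS vs TN went the other way: *ATF5*, a transcription factor gene, was at 360, 348 and 514 CPM in TN and 268, 195 and 203 CPM in HS (log2 fold change -0.90 ± 0.31, edgeR FDR 0.462, DESeq2 FDR 0.0906). In PF vs TN, DESeq2 called *PHGDH* as higher (1.22 ± 0.35) and the stress gene *DDIT4* as lower (-1.54 ± 0.40).

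**Figure D4:**
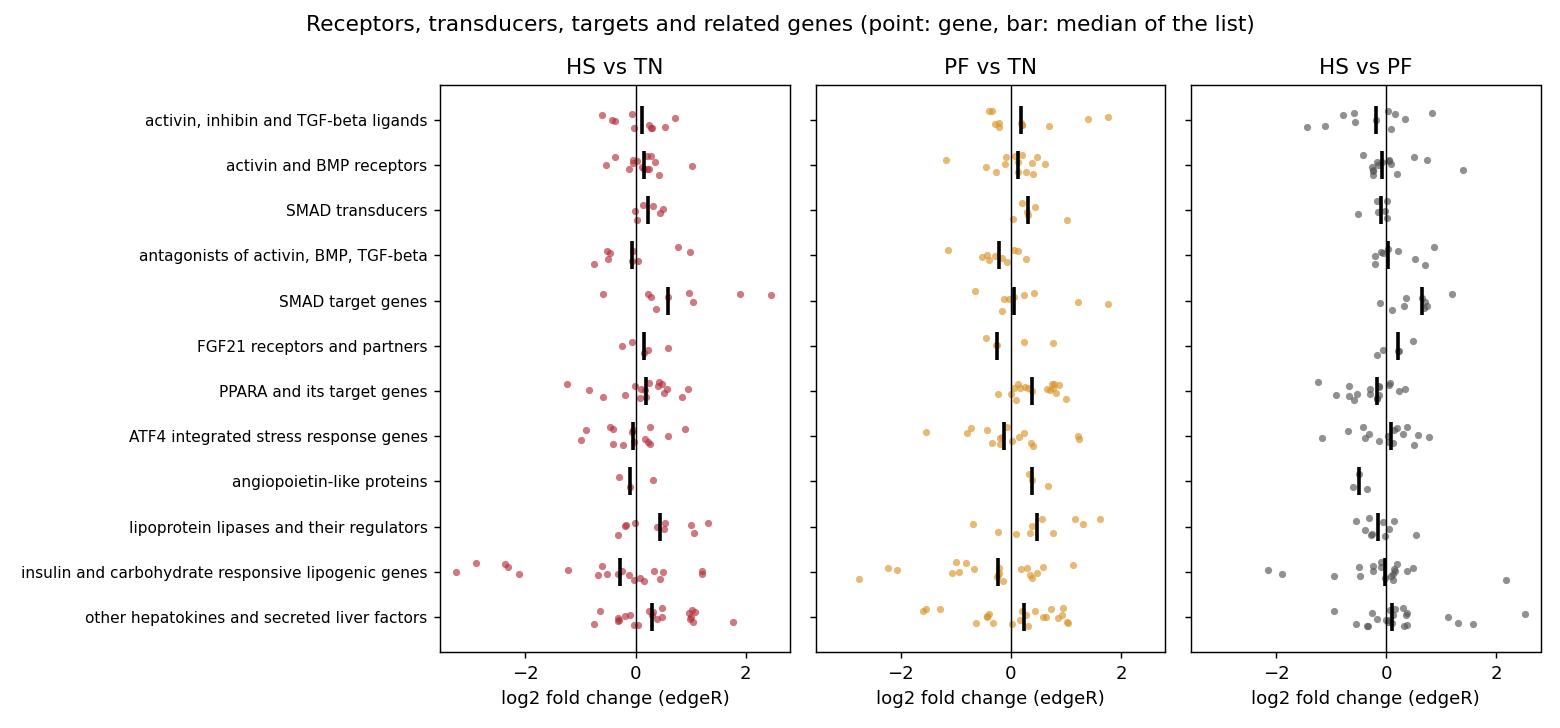
Log2 fold changes (edgeR) of the tested genes of 12 lists in HS vs TN, PF vs TN and HS vs PF, with 1 point a gene and a bar at the median of each list. SMAD target genes lie mostly to the right in HS vs TN (median 0.59) and HS vs PF (median 0.64) and around 0 in PF vs TN (median 0.063), while PPARA targets lie mostly to the right in PF vs TN (median 0.38).

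Around *ANGPTL4* and *ANGPTL8*, the related gene *ANGPTL6* was at -0.30 ± 0.34 in HS vs TN and 0.32 ± 0.33 in PF vs TN, with overlapping cows in both. Its HS cows (30.6 to 49.4 CPM) were all below its PF cows (53.9 to 65.1 CPM). Of the 3 other angiopoietin-like genes tested in HS vs PF, 0 were higher and 3 lower, with a median of -0.50 and no call. *LPL*, the gene of the lipase itself, was at -0.32 ± 0.47 in HS vs TN and -0.24 ± 0.35 in PF vs TN. Of the 10 tested lipase and lipoprotein regulators, 6 were higher in HS vs TN (median 0.45) and 8 in PF vs TN (median 0.47), with no edgeR call. *APOC2*, which codes for the lipase activator, was at 1.31 ± 0.33 in HS vs TN and *APOA4*, another apolipoprotein gene, at 1.05 ± 0.30, and DESeq2 called both. In PF vs TN its only call in this list was *APOA5*, at 1.31 ± 0.42.

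Of the 20 lipogenic genes that respond to insulin and carbohydrate, as *ANGPTL8* does, 13 were lower and 7 higher in each of HS and PF compared with TN, with medians of -0.28 and -0.23, and edgeR called none. *ACACA*, which codes for acetyl-CoA carboxylase, was 4.36-fold lower in HS and 4.72-fold lower in PF than in TN, with edgeR FDRs of 0.290 and 0.577, and DESeq2 called both. Its levels were 182, 40.3 and 184 CPM in TN against 15.1 to 38.4 CPM in the other 6 cows, so that TN replicate 2 lay just above them. *INSIG1*, a brake on sterol synthesis, was at -1.22 ± 0.32 in HS vs TN (called by DESeq2) and -0.26 ± 0.41 in PF vs TN. DESeq2 called 2 more genes of this list in HS vs TN, in opposite directions: *PNPLA3* was lower (-2.90 ± 1.02), and *DGAT2*, an enzyme gene of the last step of triglyceride synthesis, was higher (means of 48.9 CPM in HS and 21.0 CPM in TN).

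Other secreted liver factors gave no edgeR call among 22 tested genes, 14 of which were higher in HS than in TN and 14 in PF than in TN, with medians of 0.31 and 0.24. DESeq2 called 1 of them, *TSKU*, as lower in PF than in TN (-1.60 ± 0.35) and as higher in HS than in PF (1.31 ± 0.41). *ADAMTSL2*, which codes for a secreted protein that binds microfibrils, was at -0.76 ± 0.22 and *MANF*, which codes for a factor released under endoplasmic reticulum stress, at 0.98 ± 0.32 in HS vs TN, both without overlap.

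Markers of other cells were read over the same libraries. Adipocyte markers summed to 3.44 to 7.07 CPM in all 9 libraries, with *LEP* at 0 in all of them. Of 5 pancreatic acinar markers, *CPA1*, *CTRB1* and *PNLIP* were at 0 in all 9 libraries and *CELA1* was at 0.235 to 1.18 CPM. Only *PRSS2* was higher, at 17.7 to 34.1 CPM in HS and 24.0 CPM in PF replicate 1 against at most 0.495 CPM in the other 5 libraries, so the sum of these markers (18.5 to 34.6 CPM in HS and 0.298 to 1.67 CPM in TN) is carried by 1 gene. Kupffer cell and macrophage markers summed to 2281 to 3898 CPM in HS, 1356 to 2156 CPM in PF and 1536 to 3542 CPM in TN. The part of these cells in the levels of the 9 genes was not tested.

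The genes most like each member over the 9 libraries were found by the Pearson correlation of log2 levels among 15072 other genes, as a description of libraries that share conditions, depth and cows. *FGF21* was most like *INHBA*, the gene of the activin A subunit, with r = 0.940, and then *CL43*, a collectin gene, with r = 0.936. *INHBA* was at 2.47, 7.57 and 7.22 CPM in PF, 1.05, 1.05 and 2.98 CPM in TN and 2.41, 3.63 and 0.270 CPM in HS, so the same PF cows were highest. *INHBC* was most like *POPDC3* (r = 0.969) and *SP1* (r = 0.920), and *INHBE* most like *DPH1* (r = 0.905). *ANGPTL4* was most like *CBX7* (r = 0.960), *ANGPTL8* like *LOC515578* (r = 0.950), *GDF15* like *FAM167B* (r = 0.966), *FETUB* like *HEXA* (r = 0.970), *LECT2* like *HIST2H2BE* (r = 0.980) and *RGMB* like *MYOZ1* (r = 0.943). Within the set, *ANGPTL8* ran most against *INHBE*, with r = -0.752.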

How the data were processed

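Liver polyA libraries of 9 cows (TN, PF and HS, 3 each) were analysed from raw gene counts that the authors deposited. The authors trimmed reads with fastp 0.23.2, aligned them to ARS-UCD1.2 with STAR 2.7.9a and counted genes with featureCounts 2.0.3, and the strand setting is not given in the sources used here. Counts were tested pair by pair with edgeR 4.0.16 (quasi-likelihood, TMM, filterByExpr, Benjamini-Hochberg over all genes tested) in R 4.3.3. A gene was called at FDR under 0.1 and fold change over 1.5. DESeq2 1.42.0, the tool of the study, was the alternative. Correlations used log2(CPM + 0.5). The edgeR steps were tested on simulated data. The 9 genes and all lists were chosen with earlier results of these data known. Named list genes were edgeR calls, otherwise the 2 smallest p of a list in HS vs TN, plus known partners. Some list results are not reported here. *HJV* and *DOCK6* values, the *CREB3L3* peak in 1 cow, *INHBA* levels and the further DESeq2 calls in the lists were singled out after values were seen. Gene neighbours came from RefSeq on ARS-UCD2.0, so no coordinates are given. Gene lengths were not used, so levels are not compared between genes.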

Additional observations from a re-analysis of the deposited data

How the results depend on the processing

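A count was taken to have moved if it changed from the main count by over 1.5 times, or to or from 0. Of the counts of all genes called, 25 moved and 17 did not, and of the counts of the 9 genes called, 9 moved and 49 did not. The main count of the 9 genes was 0 throughout, so each of their moves was from 0. In HS vs TN, 13 genes and 0 of the 9 were called, against 270 and 5 by DESeq2, 124 and 2 (*INHBE*, *INHBC*) with no filter on low counts, 4 and 0 with all 9 libraries in 1 fit, 0 and 0 at FDR under 0.05, and 0 to 39 genes and 0 to 1 of the 9 (*INHBE*, without TN replicate 2) with each cow left out. In HS vs PF, 4 genes and 0 of the 9 were called, against 122 and 0 by DESeq2, 98 and 1 (*FGF21*) with no filter, 8 with RLE size factors, 8 with mitochondrial genes left out, and 5 to 10 with each cow left out. In PF vs TN, 0 genes and 0 of the 9 were called, against 91 and 2 by DESeq2, 136 and 3 (*ANGPTL8*, *FGF21*, *INHBE*) with no filter, 1 with at least 10 counts in every library, and 0 to 14 with each cow left out. Over the 3 groups, DESeq2 called 4 of the 9, and so did edgeR with no filter (*ANGPTL8*, *FGF21*, *INHBC*, *INHBE*).

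The labels do not say whether the replicate numbers pair the cows, and the main fits used no pairing. Correlations of same-numbered libraries, after group means were taken out, ran from -0.217 to 0.241. In this check 4 of 9 libraries were most like their own number. With 3 cows a group it cannot decide whether cows were paired. With a replicate block, 33 genes and 1 of the 9 (*INHBE*) were called in HS vs TN, 6 and 0 in HS vs PF and 1 and 0 in PF vs TN.

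Directions that turned belonged to small differences. For *FETUB* in HS vs PF the log2 fold change was -0.0081 by DESeq2, -0.0090 with RLE size factors, -0.0067 with mitochondrial genes left out, -0.21 with the replicate block, and -0.84 to 0.44 with each cow left out. With each cow left out, *FGF21* ran from -1.14 to 3.70 in HS vs TN, *ANGPTL4* from -0.65 to 0.40 in HS vs PF and from -0.18 to 0.87 in PF vs TN, and *ANGPTL8* from -0.068 to 0.47 in HS vs PF. Depth limits *GDF15*, *FGF21*, *INHBC* and *RGMB* most, whose counts were under 100 in all 3 TN libraries.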
